A study of Mus musculus with 5 samples.

Results

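The data below describe 8 genes of the liver sinusoidal endothelium: the secreted factors Wnt2, Wnt9b, Rspo3, Bmp2, Bmp6 and Hgf, and the transcription factors Gata4 and Maf. They are defined by name, with no threshold on a measured value, and earlier results of these data were known when the names were chosen. Every probe on the array that carries 1 of these names was read. This gave 15 of 56605 probes and 8 of 37074 gene names.

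Liver sinusoidal endothelial cells (LSECs) line the sinusoids, the fenestrated capillaries of the liver. They also act on neighboring cells through secreted (angiocrine) factors. Wnt2, Wnt9b and the Wnt amplifier Rspo3 are best known from endothelium around the central vein, where they keep hepatocytes in a pericentral state. Bmp2 and Bmp6 instruct hepatocytes to make hepcidin, the hormone that limits iron uptake, and Hgf acts on hepatocytes through the receptor Met. Gata4 is a zinc finger factor that directs the sinusoidal as opposed to the continuous type of endothelium, and Maf (c-Maf) is a basic leucine zipper factor of sinusoidal endothelium and of macrophages.

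Gene expression came from 5 single-color Agilent mouse arrays of 60-mer probes, 1 array for each condition. The samples were LSECs of normal mouse liver, tumor endothelial cells (TECs) of 3 kinds of orthotopic liver tumor (KYN-2, HAK-1B or Hepa1-6), and the Hepa1-6 line in culture. TECs are the cells that magnetic beads against mouse CD31 held from collagenase-digested tumors in the left liver lobe, and they may therefore include any other CD31-positive or bead-binding cell. The study isolated LSECs with magnetic beads as well and reports a flow cytometry check of purity for LSECs and for TECs of each tumor. Both KYN-2 and HAK-1B (written HAK1B in the labels) come from human liver cancer, whereas Hepa1-6 derives from a mouse hepatoma. The labels give strain C57BL/6 for LSECs and for all TECs and C57L for the cultured cells, whereas the methods name 2 hosts, C57BL/6 and nude (BALB/c nu/nu) females aged 6 weeks, without saying which host carried which tumor. No treatment is given for any of the 5 samples. The number of mice behind an array is not given in the sources used here.

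Values are normalized signals on a log2 scale, quantile normalized over the 5 arrays, and differences are log2 ratios of 1 array to the LSEC array. A probe is called well above background when the scanner software flagged it so, and dark otherwise. Where a probe was dark on 1 side, the difference is a bound ("at least"), taken against the higher of the faintest signal that was well above background on the dark array and the signal of the dark probe. A gene with several probes is represented by its brightest probe unless stated. Where 3 values stand together without names, they are those of HAK-1B, then Hepa1-6, then KYN-2 TEC. With 1 array for each condition there is no replicate check of any single comparison, and precision is limited by the number of arrays.

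Probes well above background made up between 44.6% and 78.1% of an array, the highest share being that of Hepa1-6 TEC, and no probe was saturated. The endothelial label was checked against markers. On the LSEC array all 15 LSEC markers and all 14 pan-endothelial markers that could be compared were well above background, among them Stab2 at 17.26 and Clec4g at 18.04, whereas on the array of cultured cells only 2 and 3 of them were. The same LSEC array also carried the Kupffer cell marker Clec4f at 17.07 and the hepatocyte marker Alb at 12.97. All 3 TEC arrays shared a slide that held no other sample, so that slide and group cannot be told apart. In bulk samples such as these, fewer cells of a type and less RNA per cell cannot be told apart.

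For 4 of the 6 secreted factors the reference table held the sequence before the gene's start, and it is shown because Gata4 and Maf, which bind short DNA words, were measured on the same arrays. The sequences are from RefSeq (GRCm38.p6), 250 bases ending just before the start, written 5′ to 3′ on the strand of the gene. Capitals mark GATA words (AGATAA or AGATAG or TGATAA or TGATAG) and TGCTGA, the core of the sequence Maf recognizes, searched on both strands. Wnt2 lies at chr6:18030446-18030695 (minus strand), Wnt9b at chr11:103749822-103750071 (minus strand), Bmp6 at chr13:38345466-38345715 (plus strand) and the first of the 2 listed starts of Hgf at chr5:16553245-16553494 (plus strand). No sequence is shown for Rspo3, Bmp2, Gata4 and Maf.
Wnt2: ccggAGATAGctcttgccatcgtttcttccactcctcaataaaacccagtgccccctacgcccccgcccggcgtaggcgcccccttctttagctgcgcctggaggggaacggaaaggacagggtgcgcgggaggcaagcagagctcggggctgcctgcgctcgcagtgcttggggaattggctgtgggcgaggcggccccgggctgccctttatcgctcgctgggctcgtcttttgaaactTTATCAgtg
Wnt9b: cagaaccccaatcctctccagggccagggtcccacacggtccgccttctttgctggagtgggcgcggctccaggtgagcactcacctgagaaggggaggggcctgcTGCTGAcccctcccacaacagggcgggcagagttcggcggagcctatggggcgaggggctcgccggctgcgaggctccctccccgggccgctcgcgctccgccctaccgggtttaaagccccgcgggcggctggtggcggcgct
Bmp6: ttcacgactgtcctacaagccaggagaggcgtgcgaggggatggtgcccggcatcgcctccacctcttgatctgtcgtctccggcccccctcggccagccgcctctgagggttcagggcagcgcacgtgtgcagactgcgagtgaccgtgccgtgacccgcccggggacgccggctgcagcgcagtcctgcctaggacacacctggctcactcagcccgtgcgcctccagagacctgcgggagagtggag
Hgf: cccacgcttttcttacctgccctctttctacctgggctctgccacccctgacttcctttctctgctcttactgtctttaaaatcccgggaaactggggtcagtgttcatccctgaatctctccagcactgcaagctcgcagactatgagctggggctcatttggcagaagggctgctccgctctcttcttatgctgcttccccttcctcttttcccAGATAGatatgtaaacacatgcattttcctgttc
The Wnt2 sequence held 2 GATA words, of which AGATAG lay 246 to 241 bases before the start and TTATCA, a match on the opposite strand, 9 to 4 bases before it. The first Hgf start had AGATAG at 34 to 29 bases before it, and the second Hgf start, Wnt9b and Bmp6 had none of these words. The Maf core was found once, in Wnt9b at 144 to 139 bases before the start. A GATA word occurs in 26.5% and the Maf core in 16.1% of 32851 RefSeq sequences of the same length. Base composition divided the 4 genes, since the Wnt2, Wnt9b and Bmp6 sequences held 63.6%, 72% and 68.8% G and C with 20, 22 and 22 CpG dinucleotides, and the first Hgf sequence held 50.8% with 4. These matches describe letters only and say nothing of binding.

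All 15 probes of the 8 genes were well above background on the LSEC array, and the 8 brightest probes were so on all 4 endothelial arrays. Each of the 8 was highest on the LSEC array. Wnt2, Bmp2, Bmp6, Gata4, Maf and Rspo3 were lower in every TEC by at least the ratio of the study (0.66 or less), whereas Wnt9b missed it in KYN-2 TEC and Hgf in HAK-1B TEC. The median log2 ratio of the 8 genes was -3.54 (HAK-1B TEC), -2.77 (Hepa1-6 TEC) and -2.23 (KYN-2 TEC), beside -0.05, -0.23 and -0.08 for all 19310 genes that could be compared in all 3 TECs.

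**Figure D1:**
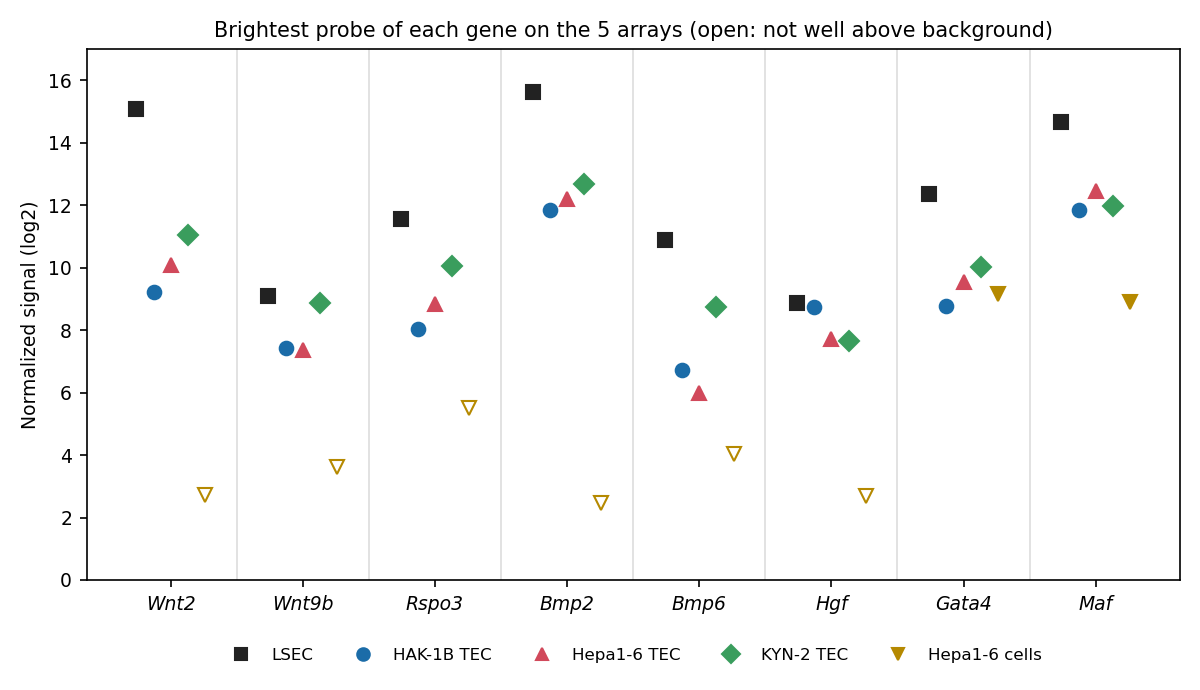
Normalized signal (log2, vertical axis) of the brightest probe of each of the 8 genes (horizontal axis) on the 5 arrays, 1 point for each array and no error bars because each condition had 1 array. Filled points are well above background and open points are not. The LSEC point is the highest for every gene, and in cultured Hepa1-6 cells only Gata4 (9.17) and Maf (8.90) are filled.

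The study calls a gene lower when its ratio to LSEC is 0.66 or less and its Z-score is -2 or less. The Z-score was computed here as the log2 ratio minus the mean over all kept probes, divided by their SD. The SD of the log2 ratios was 1.41 (HAK-1B TEC), 1.70 (Hepa1-6 TEC) and 1.38 (KYN-2 TEC), so a call needed a signal at least 6.91-, 9.84- and 6.77-fold lower. By this rule 6 of the 8 genes were lower in HAK-1B TEC (Wnt2, Rspo3, Bmp2, Bmp6, Gata4 and Maf), where 3.94% of all genes were. In Hepa1-6 TEC 3 were lower (Wnt2, Bmp2 and Bmp6; 2.04% of all genes), and in KYN-2 TEC 2 were (Wnt2 and Bmp2; 2.87% of all genes). Wnt2 and Bmp2 passed in all 3 TECs, as 1.00% of all genes did. By the ratio alone 7, 8 and 7 of the 8 genes were lower in the TECs, beside 26.9%, 30.9% and 28.5% of all genes, and 6 were lower in all 3, beside 17.8%. In the other direction, 2129 of all 19310 genes were higher in all 3 TECs by the ratio (1.5 or more). The 3 comparisons share the LSEC array. The count in all 3 TECs depended on the processing: it was 1 with scaling to the 75th percentile and 5 with normexp background correction.

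A fit of the 3 TECs against the 1 LSEC array called no probe. By limma with Benjamini-Hochberg adjustment, 0 of 42112 probes reached an adjusted p of 0.05, the smallest adjusted p was 0.443, and 3581 probes had an unadjusted p under 0.05. The adjusted p (limma) of the 15 probes lay between 0.443 and 0.848, and 9 of them were among those with an unadjusted p under 0.05. The fit has 2 residual degrees of freedom and assumes that the lone LSEC array varies like the TECs. The values that follow are therefore given as differences between arrays, and an SD is the spread over the 3 TECs, which come from different tumors and are not replicates of each other.

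Wnt2, a Wnt ligand that acts through beta-catenin, had the lowest ratio of the 8 genes. Its only probe, at chr6:17939284-17939343 (mm9), stood at 15.08 in LSEC and at 9.21 (HAK-1B TEC), 10.10 (Hepa1-6 TEC) and 11.04 (KYN-2 TEC), and it was dark in cultured Hepa1-6 cells. LSEC lay far above the TECs, which spanned 1.83 on the log2 scale among themselves. The signal was 58.4-fold lower (HAK-1B TEC), 31.5-fold lower (Hepa1-6 TEC) and 16.4-fold lower (KYN-2 TEC), a mean log2 ratio of -4.96 ± 0.91 (SD, n = 3). Against cultured Hepa1-6 cells LSEC was at least 554-fold higher.

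Wnt9b, the other central vein Wnt ligand, differed less and not alike in the TECs. Its only probe, at chr11:103588882-103588941 (mm9), stood at 9.10 in LSEC and at 7.44 (HAK-1B TEC), 7.35 (Hepa1-6 TEC) and 8.88 (KYN-2 TEC), and it was dark in cultured cells. The KYN-2 TEC value was next to that of LSEC (1.16-fold lower), whereas HAK-1B and Hepa1-6 TEC were 3.16- and 3.36-fold lower. The mean log2 ratio was -1.21 ± 0.86 (SD, n = 3), and no TEC passed the rule of size.

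Rspo3, an R-spondin that raises Wnt receptor levels at the cell surface, had 2 probes. The brighter, at chr10:29172930-29172989 (mm9), stood at 11.56 in LSEC and at 8.05 (HAK-1B TEC), 8.85 (Hepa1-6 TEC) and 10.05 (KYN-2 TEC), and it was dark in cultured cells. These are 11.4-, 6.56- and 2.85-fold lower signals in the TECs. The second probe, at chr10:29172236-29172295, was 7.78-, 12.8- and 1.81-fold lower, so that the probes gave the same direction but not the same order of HAK-1B and Hepa1-6 TEC. The mean log2 ratios of the probes were -2.58 ± 1.01 and -2.50 ± 1.47 (SD, n = 3).

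Bmp2, a BMP ligand, had the smallest spread over the TECs among the secreted factors by their brightest probes. Its only probe, at chr2:133388260-133388319 (mm9), stood at 15.63 in LSEC and at 11.85 (HAK-1B TEC), 12.21 (Hepa1-6 TEC) and 12.69 (KYN-2 TEC), and it was dark in cultured cells. The TECs lay within 0.84 of each other and all passed the rule of size, at 13.7-, 10.7- and 7.69-fold lower signal. The mean log2 ratio was -3.38 ± 0.42 (SD, n = 3), and LSEC was at least 813-fold above cultured cells.

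Bmp6, the main BMP of hepatic iron sensing, separated the TECs. Its only probe, at chr13:38591479-38591538 (mm9), stood at 10.89 in LSEC and at 6.73 (HAK-1B TEC), 6.00 (Hepa1-6 TEC) and 8.75 (KYN-2 TEC), and it was dark in cultured cells. KYN-2 TEC had the highest TEC signal, 4.41-fold below LSEC, whereas HAK-1B and Hepa1-6 TEC were 17.8- and 29.6-fold lower. The mean log2 ratio was -3.73 ± 1.42 (SD, n = 3), and only the HAK-1B and Hepa1-6 values passed the rule of size.

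Hgf, hepatocyte growth factor, was the member whose probes went in opposite directions. Its 4 probes lie on chromosome 5 (mm9). In order of position they start at 16074696, 16077080, 16079193 and 16124829, the last 45.6 kb beyond the third. The first 3 were lower in each TEC, and the last, designed on the RefSeq transcript NM_010427, was higher in each.
The brightest probe, at 16079193 (designed on NM_001289460), stood at 8.86 in LSEC and at 8.75 (HAK-1B TEC), 7.73 (Hepa1-6 TEC) and 7.64 (KYN-2 TEC). HAK-1B TEC was within 1.08-fold of LSEC, and the other TECs were 2.19- and 2.33-fold lower. The probe at 16124829 stood at 7.46 in LSEC and at 8.57 (HAK-1B TEC), 8.02 (Hepa1-6 TEC) and 8.08 (KYN-2 TEC). It was 2.15-, 1.47- and 1.54-fold higher in the TECs, a mean log2 ratio of 0.76 ± 0.30 (SD, n = 3), and it was the only 1 of the 15 probes that was higher in all 3. The probes at 16077080 and 16074696 had mean log2 ratios of -1.06 ± 0.65 and -1.30 ± 0.71 (SD, n = 3), the latter dark in KYN-2 TEC, where LSEC was at least 1.73-fold higher. No probe of Hgf passed the rule of size in a TEC, and all 4 were dark in cultured cells. Beside Hgf, which mesenchymal cells of the liver also make, the stellate cell and fibroblast list had a median log2 ratio of 0.30, 0.87 and 0.84 in the TECs. Its summed signal was 34632.5 in LSEC, between 59961 and 88833 in the TECs and 151831 in cultured Hepa1-6 cells, where Dcn, a matrix proteoglycan on the list, stood at 16.74, so that the sum is not particular to stellate cells. Of the list, 4 of 17 members were higher in all 3 TECs by the ratio and 0 lower, and Col1a1, a collagen gene, was dark in LSEC and at least 26.7-, 71.1- and 112-fold higher in the TECs. The defining marker Lrat was dark on all endothelial arrays but Hepa1-6 TEC. The part of these cells in the Hgf values was not tested.

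**Figure D2:**
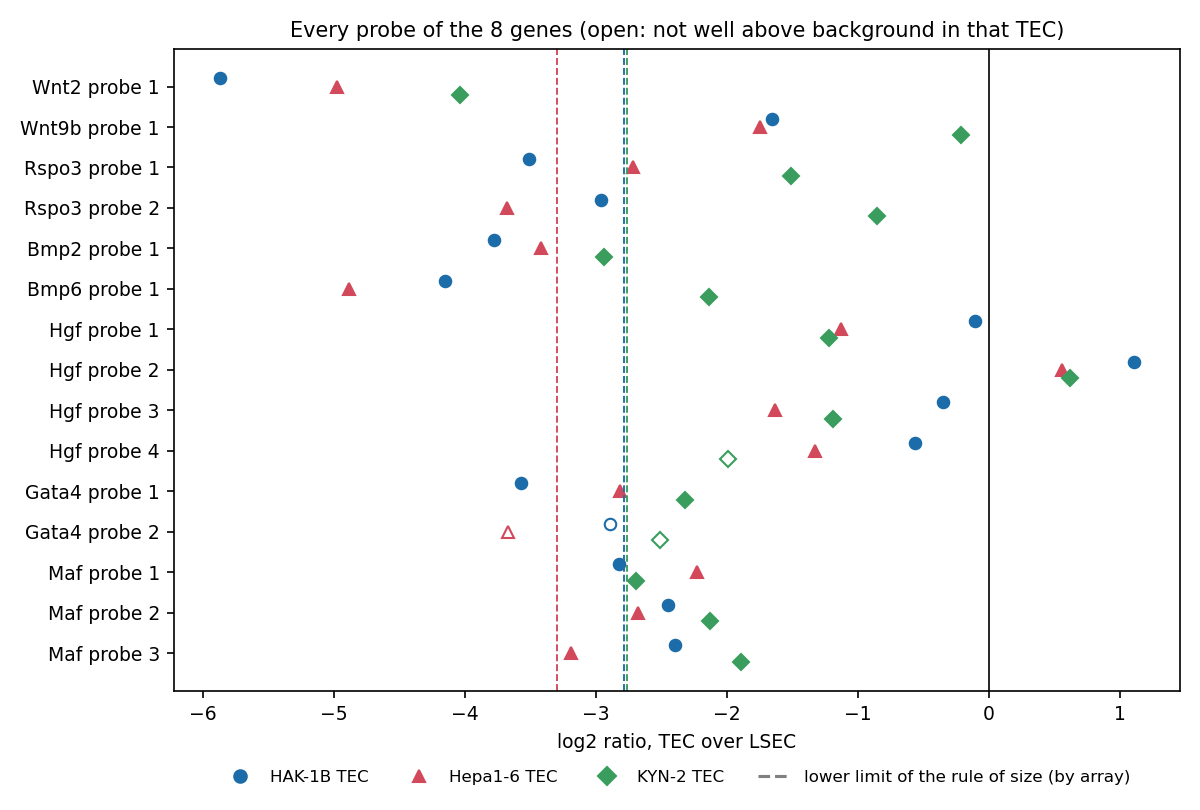
Log2 ratio of each TEC to LSEC (horizontal axis) for all 15 probes of the 8 genes (vertical axis, numbered by brightness within a gene), 1 point for each TEC array. Open points are not well above background in that TEC, and dashed lines are the lower limits of the rule of size (log2 -2.79 for HAK-1B, -3.30 for Hepa1-6 and -2.76 for KYN-2). Hgf probe 2 is the only row with all points right of 0, and Wnt2 and Bmp2 are the only rows with each point left of its limit.

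Gata4, unlike the 6 secreted factors, was also well above background in cultured Hepa1-6 cells. Its brighter probe, at chr14:63817858-63817917 (mm9), stood at 12.35 in LSEC and at 8.78 (HAK-1B TEC), 9.53 (Hepa1-6 TEC), 10.03 (KYN-2 TEC) and 9.17 in cultured cells. The value in cultured cells lay inside the range of the TECs. The TEC signals were 11.9-, 7.05- and 4.99-fold below LSEC, a mean log2 ratio of -2.90 ± 0.63 (SD, n = 3), and HAK-1B TEC passed the rule of size. The second probe, at chr14:63860003-63860062, was dark in every TEC and in cultured cells, with LSEC at least 3.91-, 10.5- and 3.02-fold above the TECs. Hepatoma cell markers moved with Hepa1-6 TEC: the log2 ratio of Afp to LSEC was 7.58 there, beside -1.59 (HAK-1B TEC) and 0.27 (KYN-2 TEC). Of the 7 hepatoma markers 3 were higher in all 3 TECs by the ratio and 0 lower, and their summed signal was 4575 in LSEC, 8682 to 56015 in the TECs and 90652 in cultured cells. The share of tumor cell RNA in the Gata4 signal was not tested, nor was the binding of human RNA to these mouse probes in HAK-1B and KYN-2 TEC.

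Maf had the least spread over the TECs of the 8 genes. Its brightest probe, at chr8:118227736-118227795 (mm9), stood at 14.68 in LSEC and at 11.86 (HAK-1B TEC), 12.46 (Hepa1-6 TEC), 11.99 (KYN-2 TEC) and 8.90 in cultured cells. The TECs lay between LSEC and cultured cells and within 0.60 of each other. The TEC signals were 7.10-, 4.68- and 6.47-fold below LSEC, a mean log2 ratio of -2.58 ± 0.31 (SD, n = 3), and HAK-1B TEC passed the rule of size by a narrow margin (-2.83 beside a limit of -2.79). The other 2 probes had mean log2 ratios of -2.42 ± 0.28 and -2.49 ± 0.65 (SD, n = 3) and passed the rule of size in no TEC. Macrophages also use Maf, and their markers were read on each endothelial array: all 12 measured Kupffer cell and macrophage markers were well above background on all 4, their summed signal was 942514 in LSEC and 492539 to 849446 in the TECs, and 5 of 12 were lower in all 3 TECs by the ratio. Clec4f, the marker of this list with the largest mean difference, was lower by 5.56, 2.02 and 2.62 on the log2 scale. The median log2 ratio of the 12 markers was 0.140, -1.20 and -0.998, so it was above 0 in HAK-1B TEC. The part of macrophages in the Maf values was not tested.

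Among the TECs, KYN-2 TEC had the highest signal for 6 of the 8 genes and HAK-1B TEC the lowest for 5. The order HAK-1B, Hepa1-6, KYN-2 from low to high held for Wnt2, Rspo3, Bmp2 and Gata4. It was not particular to these genes. The median log2 ratios of the pan-endothelial genes (-2.85, -2.66 and -1.69) and of the LSEC markers (-3.87, -3.29 and -2.93) had the same order. Hgf went the other way, with HAK-1B TEC highest, and Maf was highest in Hepa1-6 TEC. Neutrophil markers were ordered from HAK-1B TEC down, with median log2 ratios of 4.75, 3.31 and 1.15. Of these 11 markers 6 were higher in all 3 TECs by the ratio and 0 lower, and S100a8, a granulocyte protein, was 131-, 20.7- and 3.07-fold higher. Their summed signal was 94035 in LSEC and 208058, 77802 and 87977 in the TECs. The sum of the 4 measured cholangiocyte markers was 1004 in LSEC and 64884, 12472 and 59694 in the TECs. Of these 4 markers only Spp1 (osteopontin) was higher in all 3 TECs by the ratio, and none was lower. The median log2 ratio of the 4 was -0.15, 2.45 and 0.91. Spp1 was 71.2-, 13.0- and 65.4-fold higher, while the defining markers Krt7 and Epcam were dark in LSEC and in HAK-1B TEC. The part of these cells in the order of the TECs was not tested. With 1 array each, these orders carry no estimate of error beyond the repeat-spot coefficient of variation within an array, 2.62% to 3.08% in the median, and all 15 probes were single spots.

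The pan-endothelial genes, which every endothelial cell uses, were lower in the TECs as well. Their median log2 ratio was -2.85 (HAK-1B TEC), -2.66 (Hepa1-6 TEC) and -1.69 (KYN-2 TEC), and 13 of 14 were lower in all 3 by the ratio. The exception was Pecam1 (CD31, the protein the beads bind), 2.25- and 3.87-fold lower in HAK-1B and Hepa1-6 TEC and 1.07-fold lower in KYN-2 TEC. The summed signal of the 14 was 739771 in LSEC, between 88164 and 176837 in the TECs and 4711 in cultured cells. The ratios of the 8 genes were therefore also set against this median on each array, a comparison chosen after the values were seen. Wnt2 lay 3.02, 2.32 and 2.35 below it on the log2 scale, lower than all 14 pan-endothelial genes on each TEC array. Bmp6 lay 1.31, 2.23 and 0.45 below it and Bmp2 0.93, 0.77 and 1.25 below it. Gata4 was below it by 0.73, 0.16 and 0.63. Rspo3 (-0.66, -0.06 and 0.18) and Maf (0.02 and 0.43, but below it in KYN-2 TEC) lay on either side of the median. Wnt9b (1.19, 0.91 and 1.48) and Hgf (2.74, 1.53 and 0.47) were above it on all 3 arrays. So 4 of the 8 genes were below the pan-endothelial median in all 3 TECs, 2 above it in all 3, and 2 mixed.

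The 15 LSEC markers had median log2 ratios of -3.87, -3.29 and -2.93, 12 of 15 were lower in all 3 TECs by the ratio and 7 by the rule of size. Of these 15 markers, 0, 1 and 4 had a lower ratio than Wnt2. The largest differences were those of Ehd3 (mean log2 ratio -5.09), Dnase1l3 (-5.00) and F8, coagulation factor VIII (-4.29). The 3 markers that were not lower in all TECs were Lyve1, Il1a and Cd36. Lyve1 and Il1a had mean log2 ratios above 0 (0.88 and 0.60), and Cd36 was 1.61-fold higher in KYN-2 TEC but lower in the other TECs. Markers of continuous endothelium had medians of -0.19, -0.50 and 1.04, and Apln and Esm1, genes of angiogenic tip cells, were among 5 of 14 that were higher in all 3 TECs by the ratio. Of the other markers on that list, 1 was lower in all 3 (Sox18, 3.98-, 5.45- and 2.86-fold) and 8 were neither, so the list did not move in 1 direction. The list of central vein endothelium, which includes Wnt2, Wnt9b and Rspo3, had a median of -1.26 in the mean ratio, and its other large difference was that of Kit (-2.38). Of its 9 genes 5 were lower in all 3 TECs by the ratio and none higher. Selp was 3.32-fold higher in HAK-1B TEC and 4.48-fold higher in KYN-2 TEC, but not in Hepa1-6 TEC. Vwf was 1.44-fold higher in KYN-2 TEC and lower in the other TECs.

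**Figure D3:**
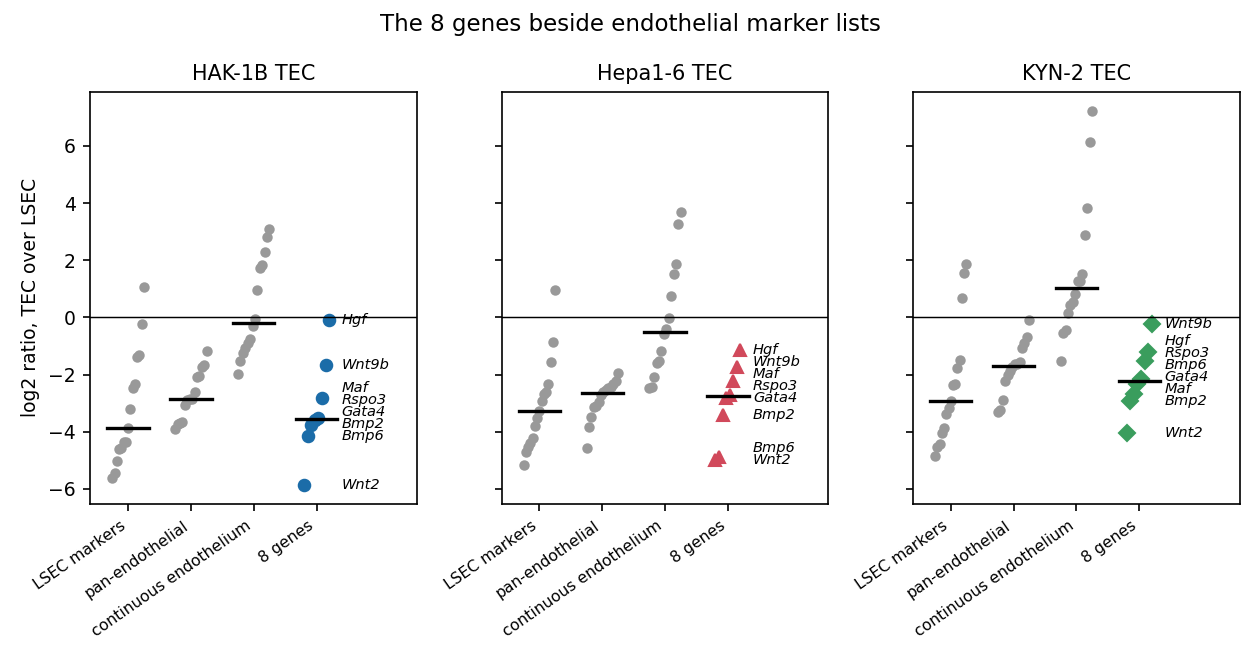
Log2 ratio to LSEC (vertical axis) on each TEC array (panels) for 15 LSEC markers, 14 pan-endothelial genes, 14 genes of continuous endothelium (grey points, 1 for each gene) and the 8 genes (colored points, named at the right from low to high). Black bars are medians: the median of the 8 genes is -3.54, -2.77 and -2.23 and that of the pan-endothelial genes -2.85, -2.66 and -1.69.

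Other genes of the Wnt pathway were read from lists of ligands, receptors, antagonists and targets. Of 10 measured Wnt and R-spondin genes, Wnt2 and Rspo3 were lower in all 3 TECs by the ratio and none was higher, and the median of the mean log2 ratios was 0.38, beside -0.10 for all genes. All 10 were well above background in LSEC, and a gene dark there was counted only if flagged present in every TEC. The count of higher genes is limited by this filter. Wnt6 and Wnt10b were dark in LSEC and are not among these 10. Wnt6 was at least 94.1-fold higher in Hepa1-6 TEC and at least 190-fold higher in cultured Hepa1-6 cells, while in KYN-2 TEC it was dark. Wnt10b was at least 3.46-fold higher in Hepa1-6 TEC and at least 2.42-fold higher in KYN-2 TEC and dark in cultured cells.
Among Wnt receptors and secretion factors 3 of 14 were lower in all 3 TECs and 2 higher. For this and the other lists, the counts to set beside are those of all 19310 genes. Of these, 3440 were lower and 2129 higher in all 3 TECs by the ratio. Whether a list differed from all genes was not tested. Fzd4, an endothelial Frizzled receptor, was 5.13-, 3.98- and 3.09-fold lower, and its second probe gave the same direction. The coreceptor Lrp6 was 4.05-fold lower in HAK-1B TEC, 4.36-fold lower in KYN-2 TEC and 56.0-fold higher in Hepa1-6 TEC, but its second probe was lower in all 3, by 0.79 on the log2 scale in Hepa1-6 TEC. Lgr4, an R-spondin receptor, was 3.29-fold higher in Hepa1-6 TEC and dark in the others, and a second probe was 2.32 lower in Hepa1-6 TEC, so its direction is not settled. Znrf3, an E3 ligase that removes Frizzled receptors, was higher in all 3 TECs (4.46-, 29.3- and 2.27-fold). Lgr5 and Ror1 were dark in LSEC and in both TECs of human tumors, and in Hepa1-6 TEC at least 50.1- and 12.6-fold higher.
The Wnt target genes had a median of 0.63 in the mean log2 ratio, with 2 of 11 lower and 1 higher in all 3 TECs. Axin2, a general Wnt target, was dark in LSEC and in both TECs of human tumors, at least 17.2-fold higher in Hepa1-6 TEC and at least 33.2-fold higher in cultured cells. Sp5 had the same pattern at a larger size, at least 416-fold in Hepa1-6 TEC. Glul, glutamine synthetase of pericentral hepatocytes, was 1.79-, 1.53- and 2.64-fold lower, and the pericentral enzyme Cyp2e1 44.3-, 3.13- and 16.0-fold lower. The other probes of Glul gave smaller differences, and 1 of them was higher by 0.32 on the log2 scale in Hepa1-6 TEC. Other hepatocyte markers moved with them in the xenografts, where the list had medians of -3.89 (HAK-1B TEC) and -2.98 (KYN-2 TEC), but not in Hepa1-6 TEC (0.59). Among Wnt antagonists, Dkk3 was 33.5-, 3.07- and 38.4-fold lower, while Dkk2 and Frzb, dark in LSEC, were well above background in every TEC.

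The BMP pathway was read in the same way. Of 10 BMP ligands, 4 were lower in all 3 TECs by the ratio, Bmp2 and Gdf6 also by the rule of size, and 1, Bmp1 (a protease despite its name), was higher. Gdf6 was dark in each TEC, with LSEC at least 3.20-, 8.62- and 2.47-fold higher, bounds that fall short of the folds a call needed, so its call rests on signals at background. Of 11 receptors and coreceptors 3 were lower in all 3 and none higher: the coreceptor Eng (endoglin) was 8.36-, 8.82- and 5.59-fold lower, Bmpr2 3.52-, 4.54- and 2.25-fold lower, and Acvr1 (ALK2) 3.05-, 3.84- and 2.87-fold lower. A second Acvr1 probe gave the same direction, and the remaining probe, dark in LSEC and in the other TECs, was well above background in HAK-1B TEC (log2 ratio 3.50), the opposite direction. Bmpr1a (ALK3) was 2.36- and 1.57-fold lower in the TECs of the human tumors and 3.17-fold higher in Hepa1-6 TEC. Bmpr1b was dark except in Hepa1-6 TEC.
The BMP target genes had the lowest median of the pathway lists, -1.58 in the mean log2 ratio, which is above the -2.41 of the pan-endothelial genes. Of these targets 5 of 9 were lower in all 3 TECs by the ratio and none higher, and none passed the rule of size in all 3. Id4 was 12.4-, 15.1- and 6.17-fold lower, Id3 5.56-, 3.24- and 2.54-fold, and the inhibitory Smad gene Smad6 3.22-, 3.13- and 2.12-fold lower. Id1 was 3.32 lower on the log2 scale in HAK-1B TEC and 2.36 lower in KYN-2 TEC, but 4.07-fold higher in Hepa1-6 TEC, and in cultured Hepa1-6 cells it was 4.50-fold above LSEC. Hamp, hepcidin, which hepatocytes make, was low throughout (5.77 in LSEC, 2.94 in Hepa1-6 TEC, dark in the other TECs and in cultured cells). Among BMP antagonists 2 of 7 were higher and 1 lower in all 3: Fstl1 was 3.25-, 1.77- and 6.08-fold higher and Bmper 4.17-, 5.12- and 1.54-fold lower. Fst, follistatin, was dark in LSEC and at least 11.8-fold higher in Hepa1-6 TEC and at least 3.02-fold higher in KYN-2 TEC.

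The HGF pathway held the receptor, activating proteases and their inhibitors. Of its 13 genes, Hgf included, none was lower in all 3 TECs by the ratio and 5 were higher, and the median of the mean log2 ratios was 0.58. Met, the Hgf receptor, was dark in LSEC and higher in each TEC, by at least 10.3-fold (HAK-1B), 26.1-fold (Hepa1-6) and 13.4-fold (KYN-2), and at least 185-fold higher in cultured cells. Its second probe was dark in LSEC as well and well above background in every TEC. Plat, tissue plasminogen activator, was 13.3-, 41.6- and 20.0-fold higher and 44.3-fold higher in cultured cells. Mst1r (RON, the receptor related to Met) was dark in LSEC and in cultured cells and at least 20.6-fold higher in Hepa1-6 TEC. Met and Plat passed the rule of size in all 3 TECs, as 112 of 19310 genes did in this direction.

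**Figure D4:**
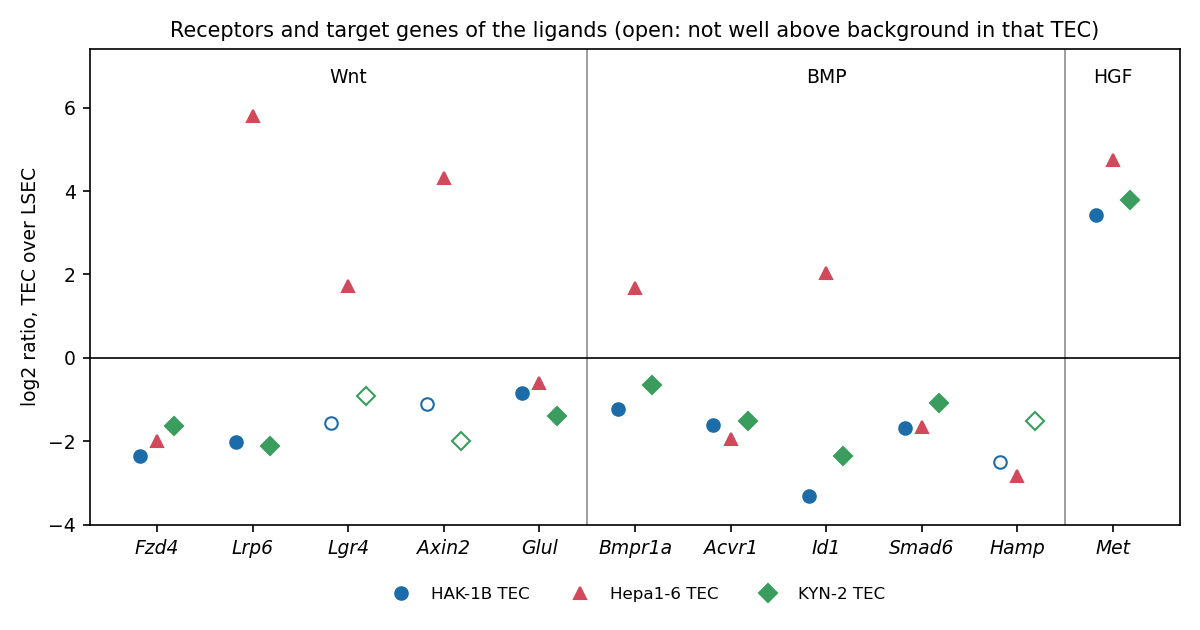
Log2 ratio of each TEC to LSEC (vertical axis) for receptors and target genes of the Wnt, BMP and HGF ligands (horizontal axis, brightest probe), 1 point for each TEC array. Open points are not well above background in that TEC. Met is above 0 in all 3 TECs (3.42, 4.75 and 3.79), and Lrp6, Lgr4, Axin2, Bmpr1a and Id1 are above 0 in Hepa1-6 TEC alone.

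The list of 14 GATA and MAF genes and cofactors, Gata4 and Maf included, had a median of -0.39 in the mean log2 ratio, with 5 lower and 1 higher in all 3 TECs by the ratio. Maff, a small Maf protein without the activating domain, was 9.96-, 4.88- and 7.01-fold higher. Among 16 other regulators of LSECs, 8 were lower in all 3 TECs and 2 higher. Nr2f2 (COUP-TFII, a venous factor) was 10.9-, 6.11- and 5.43-fold lower, Meis1 10.1-, 3.94- and 5.51-fold, and Meis2 9.57-, 4.78- and 4.09-fold lower. Each of these was called in HAK-1B TEC, as Gata4 and, by a narrow margin, Maf were.

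In cultured Hepa1-6 cells 6 of the 8 genes were lower than in LSEC by the rule of size (all but Wnt9b and Gata4), beside 4.81% of all genes, and all 8 by the ratio alone, beside 37.7%. A call there needed a 51.2-fold lower signal, which the bounds of Wnt2 and Bmp2 and the measured difference of Maf reach, whereas the calls of Rspo3, Bmp6 and Hgf rest on dark probes with bounds under that size. Gata4 was 9.09-fold and Maf 55.0-fold below LSEC there. The other 6 were dark, with bounds of at least 8.79-fold for Wnt9b, 48.5-fold for Rspo3, 30.4-fold for Bmp6 and 7.46-fold for Hgf beside those of Wnt2 and Bmp2 given above. Each secreted factor was well above background in Hepa1-6 TEC and dark in the cultured cells of the same tumor line. For Bmp6 this gives almost no measurable difference. It stood at 6.00 in the TEC, and the faintest normalized signal well above background on the array of cells was 5.96.

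For each gene, the genes with the nearest pattern were sought among 18456 genes well above background in LSEC, by the Euclidean distance between the log2 ratios to LSEC over the other 4 arrays. This is a description over 4 ratios that share 1 LSEC array. In cultured cells the 6 secreted factors were dark, so that their ratio there follows the LSEC level and the background rather than a measured difference, and the ranks below carry that limit. Nearest to Wnt2 were Ehd3 (distance 0.89), Fam124a and Plxnc1, of which Ehd3 and Plxnc1 are on the LSEC marker list. Nearest to Bmp2 were Kdr (0.46), Ptprb and Stab2. Nearest to Maf were Rgl1 (0.20), Cyp2j9 and Igsf3, and to Gata4 Mb21d2 (0.40), Kcnj5 and Nudt5. Wnt9b had Sept4 (0.28), Tcaf1 and Tns1, and Bmp6 had Art4 (0.60), Gm35933 and Gpr143. Rspo3 had 2 unnamed transcripts and Colec10 (0.76), and Hgf had Klra2 (0.44), D9Wsu90e and Fbp1. No member was among the nearest 3 of another.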

How the data were processed

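Total RNA of 5 samples was labeled with Cy3 and hybridized to Agilent 60-mer mouse arrays, 1 array for each condition. The deposited scanner files hold, for each spot, the processed signal intensity that the authors obtained with Agilent Feature Extraction (9.5.1.1 per the labels), background-subtracted and not normalized between arrays. The authors also deposited a table of quantile-normalized signal intensity, on a linear scale by its values, in which every array has the same total. It was used as an alternative, and which arrays were normalized together is not given in the sources used here. From the scanner files, control spots were left out, repeated spots of a probe were averaged, and log2 of the processed signal was quantile normalized over the 5 arrays together. The study's methods normalize the samples of each comparison as a pair, which was an alternative here. A probe entered a comparison when it was flagged present on at least 1 of its arrays, and lincRNA probes were left out. Present here means positive and significant, well above background, not saturated, and neither non-uniform nor a population outlier. Genes passed the rule of size of the methods as higher when the ratio reached 1.5 and the Z-score 2, and as lower when they were at most 0.66 and -2. The 3 TECs were also set against LSEC with limma 3.58.1 (R 4.3.3) and Benjamini-Hochberg adjustment, tested on simulated data. Python 3.11.15, numpy 2.4.6 and pandas 2.3.3 did the rest. Probe positions are those of the scanner files (mm9).

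The 8 genes, the gene lists and the tests were chosen with earlier results of these data known. Named genes are the 8, the 3 of each list with the largest mean log2 ratio in size, fixed receptors and targets (Lrp6, Fzd4, Lgr4, Axin2, Glul, Bmpr1a, Acvr1, Id1, Smad6, Hamp and Met), the 3 nearest by pattern, and defining markers of cell types. Bmp1, Dcn and S100a8 were named after their values were seen. Alternatives were other normalizations, background correction, flag filters, probes, the ratio without the Z-score, and leaving out each TEC. The labels name HAK1B for a tumor that the array paragraph of the methods does not list, and the labels were followed.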

Additional observations from a re-analysis of the deposited data

Results flagged for a closer look

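The check started from 86 genes, the 8 genes and the genes of the lists that are named or rank among the first 3 of a list. Genes dark both in LSEC and in a TEC were then left out. Of the rest, 5 differed from LSEC in 1 direction in Hepa1-6 TEC and in the other in both HAK-1B and KYN-2 TEC. None of the 8 genes was among them. The log2 ratio in Hepa1-6 TEC minus the mean of the other TECs was 7.88 for Lrp6, 7.85 for the hepatocyte marker Alb, 4.87 for Id1, 2.97 for Lgr4 and 2.61 for Bmpr1a. The difference was not tested, since each tumor had 1 array. The second probe of Lrp6 and a second probe of Lgr4 did not share the higher signal in Hepa1-6 TEC, where they were 0.79 and 2.32 below LSEC on the log2 scale. Id1 had 1 probe.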

How the results depend on the processing

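The mean log2 ratios of the 8 genes were below 0 in 94 of 96 values from other processing choices, the exceptions being Wnt9b (1.19) and Hgf (1.58) relative to the pan-endothelial median, an alternative chosen after seeing the data. Not all of these values are checks. The flag filters and the ratio without the Z-score cannot change a mean log2 ratio and repeat the main value. The choice of another probe repeats it for the 4 genes with 1 probe. The probe choice tried for Hgf was its faintest, and its probe with a mean of 0.76 turns the direction. The counts by the rule of size moved. In HAK-1B TEC the 6 genes became 5, without Maf, with scaling to the 75th percentile, with normalization by pair and with another probe. Without the Z-score they became 7. In Hepa1-6 TEC the 3 genes became 6 with normexp background correction, 8 by the ratio without the Z-score and 5 with another probe for the 4 genes that have several, where the added Gata4 call rests on a probe dark in that TEC. In KYN-2 TEC the 2 genes became 1 with scaling to the 75th percentile, 5 with normexp, 4 with a flag required on both arrays and 7 without the Z-score. In all 3 TECs the 2 genes became 1 (Wnt2) at the 75th percentile, 5 with normexp (Wnt2, Bmp2, Bmp6, Gata4 and Maf) and 6 without the Z-score. The median of the member means, -2.74, was -0.34 relative to the pan-endothelial median. Leaving out each TEC in turn gave medians of -3.15 to -2.52, 2 to 3 genes called in all remaining TECs, and 6 to 7 lower by the ratio. Limma called 0 probes under every setting run, with 2013 to 6234 at an unadjusted p under 0.05. No paired analysis was possible because there was a single array per sample type. A slide term was not estimable. The precision is limited by 1 array for each condition and, for dark probes, by the background.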
